A study of Mus musculus with 17 samples.

Results

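The C-type lectin receptors encoded by Clec4d, Clec4e, Clec4n, Clec4a2, Clec4a3, Clec7a and Clec5a were examined at their loci on mouse chromosome 6 in ATAC-seq peak lists. These 7 genes were chosen by name, out of 21864 that GENCODE gives a protein-coding transcript in mm10, and open chromatin within 20 kb of their gene bodies was taken as theirs. Over the 17 lists this gave 387 of 808470 peak intervals. Of the 34165 consensus sites, the merged peaks found among the best peaks of at least 2 lists, 19 lay in these windows.

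The study compared bone marrow-derived macrophages (BMDMs) of wild-type (WT) littermates with BMDMs without the nuclear receptor Nur77 (Nur77-KO), the product of Nr4a1, before and after lipopolysaccharide (LPS), a bacterial cell wall component that activates macrophages through Toll-like receptor signalling. All mice were male and aged 6 to 12 weeks. Nur77-KO mice came from a cross of floxed Nr4a1 mice with C57Bl6/J mice carrying CMV-Cre, which deletes in the whole body. Cre was then bred out, so every cell type of these mice lacked Nur77. Cells received no LPS (0 h) or 100 ng/ml LPS for 1 or 18 h, and each of the 6 groups held 3 lists, other than WT at 1 h, which held 2, one of them labelled replicate 1-2. The labels do not say that replicates were separate cultures or animals, so a p-value measures only the spread between these lists. Peak lists do not measure the Nr4a1 transcript, and genotypes were taken from the labels.

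C-type lectin receptors are pattern recognition receptors that bind glycans and glycolipids of fungi, mycobacteria and damaged cells. Clec4e (Mincle), Clec4d (MCL) and Clec4n (Dectin-2) signal through the adaptor FcRγ and Clec5a (MDL-1) through DAP12 and DAP10, whereas Clec7a (Dectin-1) carries its own activating motif; all of them recruit the kinase Syk, which acts on the Card9, Bcl10 and Malt1 complex to switch on cytokine genes. Clec4a2 (DCIR) carries an inhibitory motif that recruits phosphatases, and Clec4a3 is its close relative. In macrophages, Clec4e is known as a gene induced by inflammatory stimuli.

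The Clec4 genes form a cluster. Clec4a3 (chr6:122952515-122969875), Clec4a2 (chr6:123106428-123143999), Clec4n (chr6:123229843-123247021) and Clec4d (chr6:123262111-123275265) are transcribed from the plus strand, and Clec4e (chr6:123281789-123289870) from the minus strand. Clec4n and Clec4d are 15.1 kb apart and Clec4d and Clec4e only 6.5 kb, so some sites lay within 20 kb of several members. Clec7a (chr6:129461591-129472779) and Clec5a (chr6:40574894-40585821), both on the minus strand, lie elsewhere on the chromosome. A peak was described by the member with the nearest transcription start site (TSS), which does not say which gene it acts on.

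Peaks were ranked inside each list by their p-value, rank 1 being the strongest, and the best 24389 peaks of each list were used. The rank level of a site is the log2 of 24389 plus 1 over its rank, and is 0 where the site was not among those peaks; a difference of 1 is a 2-fold change in rank. A rank above 24389 comes from the rest of a list or the tie at its end, and its rank level was 0. The depth recovered for the lists ranged from 0.382 to 9.75 background reads per kb. It takes the shortest peak width of a list for the fragment length used in peak calling, which was 66 bp in Nur77-KO 18 h replicate 1 and 152 to 219 bp in the other lists, and this was not tested. Depth was 0.382 and 1.61 in the WT 1 h lists, 4.62 to 8.38 in WT at 18 h and 1.10 to 1.76 in Nur77-KO at 18 h, so genotype and depth cannot be told apart at 18 h. The peaks of Nur77-KO 18 h replicate 1 were narrow, with a median width of 135 bp against 338 to 661 bp in the other lists. Of 10 macrophage marker genes, 6 had a promoter peak in all 17 lists and the fewest had one in 12, while of 19 markers of other bone marrow cells 14 had a promoter peak in no list, and Col1a1, Zbtb46, Ms4a1 and Camp had one in 10 to 14.

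The sequences below carry the sites on which the results turn. They come from the RefSeq assembly GRCm38.p6, which is mm10, and are written 5′ to 3′ along the gene, with the part that matches a searched motif in capitals. Promoter sequences leave out exon bases.
Clec4e promoter, minus strand of chr6:123289871-123290051, a C/EBP match in capitals: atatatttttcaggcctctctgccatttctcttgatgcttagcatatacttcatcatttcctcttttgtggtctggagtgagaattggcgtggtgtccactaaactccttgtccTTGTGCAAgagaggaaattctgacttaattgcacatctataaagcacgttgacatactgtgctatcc
Clec4d intron, plus strand of chr6:123265990-123266190, 2 AP-1 matches around a C/EBP match: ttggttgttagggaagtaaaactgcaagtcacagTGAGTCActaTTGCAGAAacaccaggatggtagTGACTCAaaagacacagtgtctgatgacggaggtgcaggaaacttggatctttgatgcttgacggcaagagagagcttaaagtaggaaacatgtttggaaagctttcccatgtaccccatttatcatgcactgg
Clec4d upstream, plus strand of chr6:123260320-123260520, no match: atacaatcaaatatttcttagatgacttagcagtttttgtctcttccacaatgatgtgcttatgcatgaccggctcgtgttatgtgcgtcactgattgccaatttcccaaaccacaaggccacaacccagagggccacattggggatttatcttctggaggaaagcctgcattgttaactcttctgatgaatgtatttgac
Clec4n upstream, plus strand of chr6:123227604-123227804, a PU.1 match: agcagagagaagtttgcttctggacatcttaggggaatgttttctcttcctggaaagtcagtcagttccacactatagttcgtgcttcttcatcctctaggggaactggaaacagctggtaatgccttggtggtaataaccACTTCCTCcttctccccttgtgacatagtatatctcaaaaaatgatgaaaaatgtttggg
Clec5a upstream, minus strand of chr6:40595158-40595358, a PU.1 match: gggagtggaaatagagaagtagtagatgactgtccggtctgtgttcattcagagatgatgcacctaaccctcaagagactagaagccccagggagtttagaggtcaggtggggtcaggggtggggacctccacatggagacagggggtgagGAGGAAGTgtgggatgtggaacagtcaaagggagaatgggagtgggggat
Clec5a intron, minus strand of chr6:40580398-40580598, an AP-1 match and then an NF-kB match: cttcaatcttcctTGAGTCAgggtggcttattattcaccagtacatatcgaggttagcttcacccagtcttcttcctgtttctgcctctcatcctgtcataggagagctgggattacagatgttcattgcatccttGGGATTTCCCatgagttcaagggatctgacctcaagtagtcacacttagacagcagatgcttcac
Clec7a promoter, minus strand of chr6:129472780-129472961, no match: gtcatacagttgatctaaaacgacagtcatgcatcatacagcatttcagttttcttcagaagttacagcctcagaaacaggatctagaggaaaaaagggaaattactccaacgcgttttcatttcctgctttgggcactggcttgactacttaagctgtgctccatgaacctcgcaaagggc
Clec4a3 promoter, plus strand of chr6:122952541-122952643, between the annotated start of the gene and the start of its protein-coding transcript, no match: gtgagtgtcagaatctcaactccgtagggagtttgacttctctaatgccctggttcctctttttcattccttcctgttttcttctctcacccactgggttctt

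Motifs were searched on both strands within 100 bp of the best summit of each site. AP-1 (TGACTCA or TGAGTCA), bound by Fos and Jun proteins, was found at 4 of the 19 sites and at 16.2% of all consensus sites. C/EBP (TTGCNNAA or TTACNNAA) was found at 5 of 19 and at 16.9% of all, and PU.1 (GAGGAAGT), the motif of the macrophage lineage factor, at 2 of 19 and 7.72% of all. ISRE was found at 2 of 19 and NF-kB at 1 of 19, against 3.63% and 4.82% of all sites. Neither the Nur77 motif NBRE (AAAGGTCA) nor CTCF was found at a member site, and 1.04% and 2.8% of all sites held them. A match describes letters in a window and is not a bound site.

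Of the 19 sites, 7 had a called difference between LPS times: the promoters of Clec4a3, Clec4e and Clec7a, the broad site over Clec4d, the site upstream of Clec4n and 2 sites near Clec5a. That count takes the comparisons of LPS times together, for which no share over all sites was counted. After 1 h of LPS 2 of the 19 sites were higher, against 10.2% of all consensus sites, and 1 was lower, against 12.4% of all. After 18 h, 1 site was higher and 2 were lower than at 0 h, against 6.1% and 8.66% of all sites. Between 1 h and 18 h, 2 were higher and 2 lower at 18 h, against 5.1% and 8.23% of all. Some sites had no overlap in rank level between times, both genotypes pooled. For 1 h against 0 h this was 0 higher and 1 lower of the 19, beside 2924 and 3112 of all 34165. For 18 h against 0 h it was 1 higher and 2 lower, beside 1839 and 2459 of all. For 18 h against 1 h it was 2 higher and 1 lower, beside 1772 and 2572 of all. A call was an adjusted p under 0.05 by the exact permutation test within genotype, two-sided, with Benjamini-Hochberg adjustment over all 34165 sites. The smallest exact p that this design allows is 0.005, and at that p 3417 sites were needed for any call. With the best 10000 peaks, or where a peak had to cover 50% of a site, no site of the series was called in any comparison of LPS times, and with all deposited peaks none was at 1 h against 0 h or at 18 h against 1 h. The median difference over the 19 sites was 0.00 at 1 h and 0.05 (0.045) at 18 h, and over all sites it was -0.02 and 0.00.

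**Figure D1:**
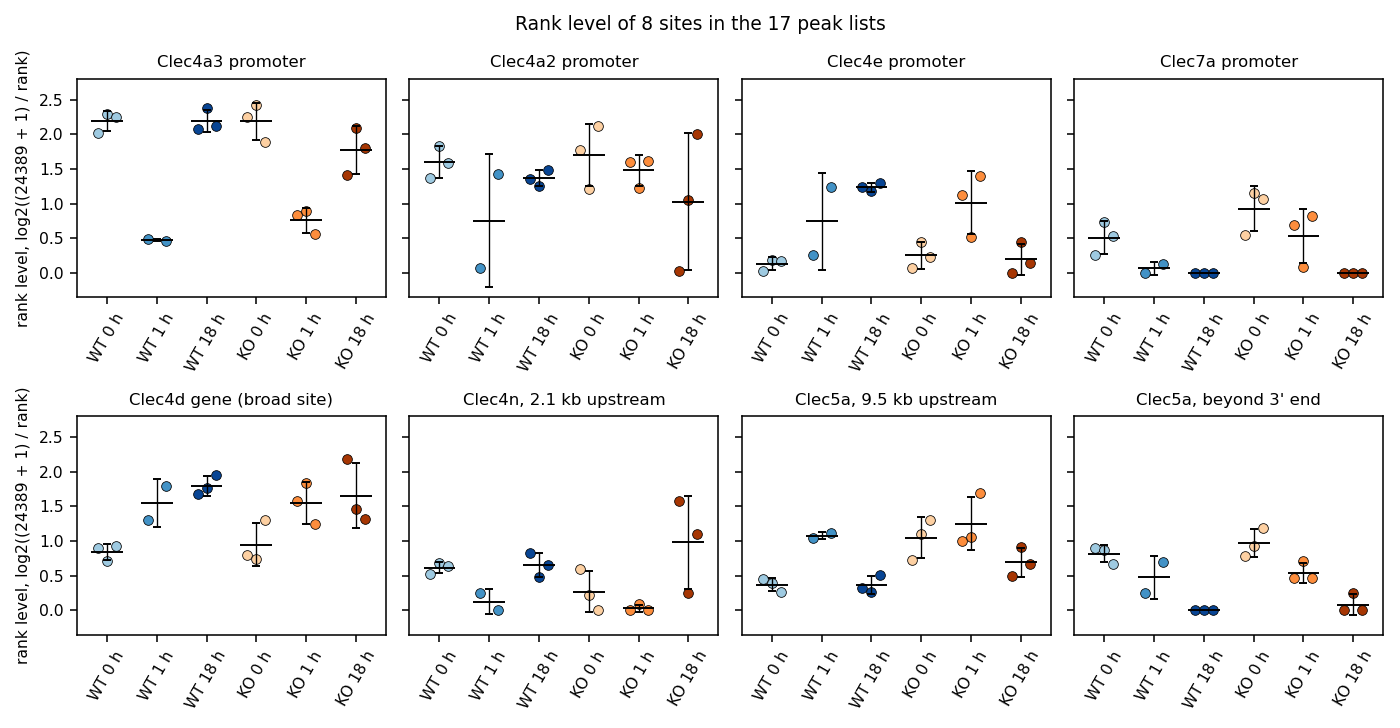
Rank level (vertical axis, log2 scale, higher is a stronger rank) of 8 sites in the 6 groups of genotype and LPS time; points are single lists, horizontal bars the group means and vertical bars 1 SD. The Clec4a3 promoter was lower at 1 h in both genotypes than at 0 h and 18 h, while the Clec7a promoter was at 0 in all 6 lists of 18 h.

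Clec4e, the inducible Mincle receptor gene, had an open promoter in all 17 full lists. Its promoter site (chr6:123288920-123291076, best summit 81 bp upstream of the TSS) stood at ranks 23997, 21373 and 21529.5 in WT at 0 h, 20457 and 10330.5 at 1 h and 10353.5, 10795.5 and 9902.5 at 18 h. In Nur77-KO macrophages the ranks were 23195.5, 17833 and 20688.5 at 0 h, 11126, 17010.5 and 9266 at 1 h and 31974, 17941.5 and 22024.5 at 18 h. Within each genotype every list of 1 h was stronger than every list of 0 h, although the weaker WT list of 1 h lay among the 0 h lists of Nur77-KO. The rank level rose by 0.69 at 1 h (0.62 in WT and 0.76 in Nur77-KO; adjusted p = 0.0272, exact permutation test). At 18 h the difference was 0.53 over both genotypes and was not called (adjusted p = 0.197, exact permutation test), with 1.11 in WT and -0.06 in Nur77-KO.

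The 3 WT lists of 18 h had a mean rank level of 1.24 ± 0.06 (SD, n = 3), and the 3 Nur77-KO lists were all weaker, at 0.20 ± 0.23 (SD, n = 3). The test of the difference in response between genotypes gave -1.16 with p = 0.02 and adjusted p = 0.942 (exact permutation test), which is no call. Without Nur77-KO 18 h replicate 1 the same difference was -1.06 (-1.065, p = 0.02, exact permutation test), and with depth as a covariate -1.13 (p = 0.015, exact permutation test). The depths of the genotypes did not overlap at 18 h, so the covariate cannot tell genotype from depth there. Over the alternative settings other than leaving out a list, the difference ran from -1.34 to -0.005 and was never called. The 1 h rise also leaned on 1 list: without WT 1 h replicate 3 it was 0.44, and limma then gave an adjusted p of 0.0735.

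Downstream of Clec4e, the site that covers its 3′ end and the gap toward Clec4d (chr6:123278890-123283328, best summit 8.85 kb from the Clec4e TSS) had no peak in any of the 6 lists of 0 h. After LPS it had a peak in 10 of 11 lists, at ranks 14417.5 and 31111 in WT at 1 h, 21968.5, 17413 and 16593.5 in WT at 18 h, 29816, 26728.5 and 27793 in Nur77-KO at 1 h and no peak, 20443 and 20003.5 in Nur77-KO at 18 h. The 18 h difference in rank level was 0.29 and was not called (adjusted p = 0.0776, exact permutation test). This site was picked out after its values were seen. The lists of 0 h, which lacked it, had 5.11 to 9.75 background reads per kb in WT and 0.72 to 7.65 in Nur77-KO. The part of depth in this was not tested.

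Clec4d, which encodes the receptor that pairs with Mincle, lay under the broadest of the sites (chr6:123259846-123268570, 8725 bp against a median of 1159 bp over all consensus sites). The site ran from upstream of the gene into its body. It stood at ranks 13062.5, 14853.5 and 12876 in WT at 0 h, 9849.5 and 7044 at 1 h and 7654.5, 7201.5 and 6326 at 18 h. In Nur77-KO it stood at 13978.5, 14643 and 9858.5 at 0 h, 8153.5, 6805 and 10321.5 at 1 h and 5345.5, 8892 and 9746 at 18 h. All 6 lists of 18 h were stronger than all 6 lists of 0 h, whereas at 1 h 1 Nur77-KO list overlapped with 0 h.

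The rank level of the broad site rose by 0.66 (0.655) at 1 h (adjusted p = 0.0442, exact permutation test) and by 0.83 at 18 h (adjusted p = 0.0339, exact permutation test). The 18 h rise was 0.95 in WT and 0.71 in Nur77-KO. The site takes its best peak in each list, which was not the same element throughout. In Nur77-KO the best peak lay 3.97 kb downstream of the TSS at 0 h and 1.7 kb upstream of it at 18 h. In WT the best peak lay 3.97 kb downstream in every list of 0 h, but 1.7 kb upstream in replicate 3 at 1 h and at 18 h. The Nur77-KO value of 0.71 therefore sets different elements against each other. The WT value of 0.95 and the 1 h and 18 h differences over both genotypes do so in part. Without WT 1 h replicate 3 the 1 h difference was 0.53, and limma then gave an adjusted p of 0.0714.

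The summits inside the broad site were also ranked 1 by 1, over the best 26558 entries of each list, a choice made after the data were seen; whether they differ from each other was not tested. The element 1.7 kb upstream of the TSS (chr6:123260100-123260563) had entry ranks 22068, 22593 and 24329.5 in WT at 0 h, no peak and 7949.5 at 1 h and 10539.5, 13101 and 7097 at 18 h. The Nur77-KO entries had ranks 26369, 28450.5 and 22276 at 0 h, 16797, 23145 and 24219 at 1 h and 6224.5, 10483 and 11354.5 at 18 h. All lists of 18 h were stronger than all lists of 0 h, and WT at 1 h was split between a strong peak and none. Its rank level rose by 1.34 at 18 h (adjusted p = 0.0362, exact permutation test), and the 1 h difference was 0.45 (adjusted p = 0.327, exact permutation test).

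The element in the Clec4d intron, 3.97 kb downstream of the TSS (chr6:123265925-123266208), was open in all 17 lists and holds both AP-1 matches shown above. Its entry ranks were 15028.5, 17231 and 14696.5 in WT at 0 h, 11317.5 and 11901 at 1 h and 8731.5, 8136 and 8495.5 at 18 h. In Nur77-KO they were 16060.5, 17123.5 and 11470 at 0 h, 9109.5, 7788.5 and 11931.5 at 1 h and 13601.5, 11598 and 13302 at 18 h. In WT every list of 1 h was stronger than those of 0 h and every list of 18 h stronger than those of 1 h, while the 3 Nur77-KO groups overlapped. The rank level rose by 0.53 at 1 h (adjusted p = 0.0469, exact permutation test), and the 18 h difference of 0.54 was not called (adjusted p = 0.0819, exact permutation test). The difference in the 18 h response between genotypes was -0.69 (p = 0.04, adjusted p = 0.996, exact permutation test).

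**Figure D2:**
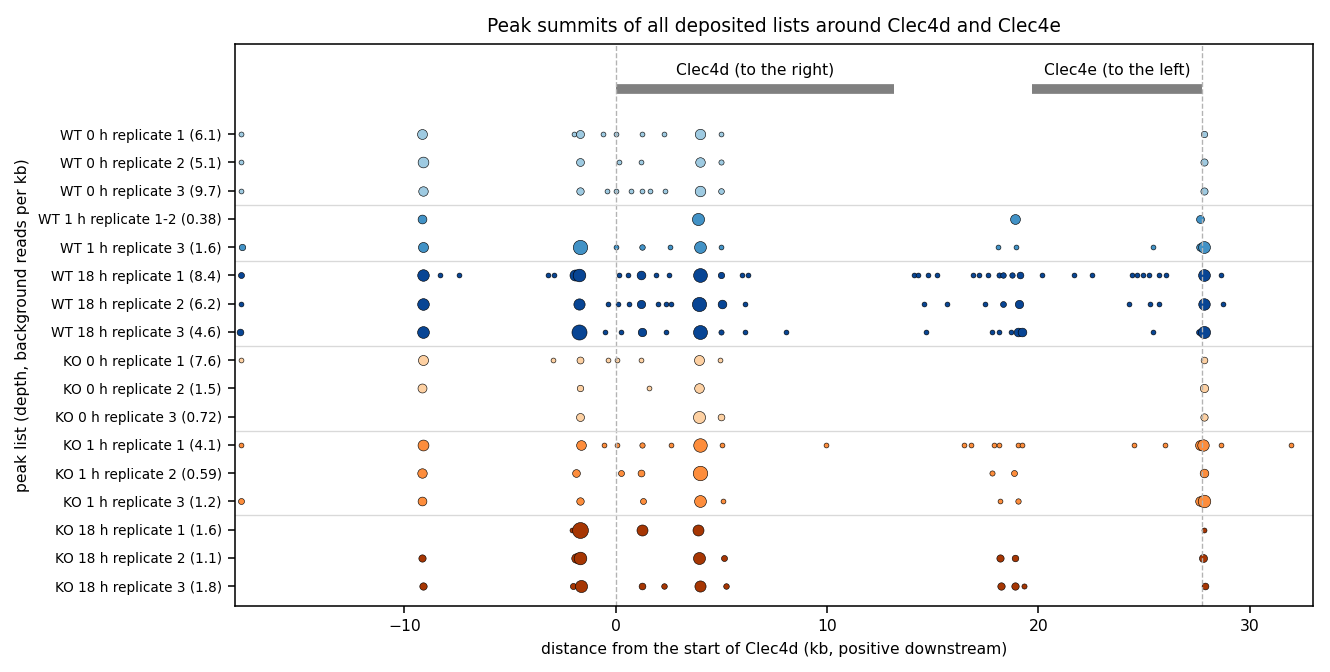
Peak summits of all deposited lists (rows, with depth in background reads per kb in parentheses) by distance from the start of Clec4d in kb; a larger dot is a stronger rank inside its list, grey bars are gene bodies and dashed lines their starts. Summits between Clec4d and Clec4e were found in LPS lists, and the dot 1.7 kb upstream of Clec4d is larger in the lists of 18 h than in those of 0 h.

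Within 1 kb of its own TSS, under the broad site, Clec4d had a weaker peak in 10 of the 17 full lists. A further element 9.1 kb upstream of Clec4d (chr6:123252508-123253397), with an AP-1 and a C/EBP match, stood at ranks 14100, 12469 and 15159.5 in WT at 0 h, 17413.5 and 13625.5 at 1 h and 10706, 10590.5 and 10440.5 at 18 h. The Nur77-KO ranks were 13866.5, 16116 and no peak at 0 h, 12213.5, 14876.5 and 16571.5 at 1 h and no peak, 20443 and 20003.5 at 18 h. At 18 h all 3 WT lists were stronger than all 3 Nur77-KO lists; at 1 h the genotypes overlapped. Over the 3 times the KO minus WT difference in rank level was -0.42 (-0.425; p = 0.0257, adjusted p = 0.566, exact permutation test), and at 18 h alone it was -1.02 (-1.025). The rank level of this element also moved with depth, by 0.15 per doubling (0.149), and with depth as a covariate the difference was -0.28 (p = 0.0272, adjusted p = 0.317, exact permutation test).

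Clec4n, the gene of Dectin-2, had no consensus site at its TSS, where only 3 of 17 full lists held a peak. The nearest site lay 2.14 kb upstream (chr6:123227244-123228227) and holds a PU.1 match. It stood at ranks 16938.5, 15254.5 and 15573.5 in WT at 0 h, 20457 and 27027.5 at 1 h and 13681, 17413 and 15552.5 at 18 h. Nur77-KO lists had it at 16177, 20973 and no peak at 0 h, 36638, 22863 and 30493 at 1 h and 8178, 20443 and 11320.5 at 18 h. Every list of 18 h was stronger than every list of 1 h, by a narrow margin in Nur77-KO 18 h replicate 2.

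The rank level at Clec4n was 0.74 higher at 18 h than at 1 h (adjusted p = 0.0375, exact permutation test), and the 1 h minus 0 h difference of -0.36 was not called (adjusted p = 0.0664, exact permutation test). With depth as a covariate the 18 h against 1 h difference was 0.61 and was no longer called (adjusted p = 0.0767, exact permutation test).

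Clec7a, the gene of the β-glucan receptor Dectin-1, had its promoter site at chr6:129470886-129473165, with its best summit 84 bp upstream of the TSS. The site stood at ranks 20424.5, 14649 and 16809 in WT at 0 h, no peak and 22196.5 at 1 h and 28463, 25076.5 and 26573.5 at 18 h. In Nur77-KO it stood at 16633, 10912 and 11660 at 0 h, 15041, 22863 and 13768 at 1 h and no peak, 23272.5 and 24424.5 at 18 h. The rank level was above 0 in all 6 lists of 0 h and at 0 in all 6 lists of 18 h, and in 2 of the Nur77-KO lists of 18 h the site lay in the tie around the last of the best peaks. The rank level fell by 0.72 at 18 h (adjusted p = 0.0339, exact permutation test), by 0.51 in WT and by 0.93 in Nur77-KO, and since the level cannot go below 0 these are smaller than the fall of the rank itself. The 1 h difference of -0.41 was not called (adjusted p = 0.123, exact permutation test). Averaged over the times, the promoter was 0.30 higher in Nur77-KO (p = 0.05, adjusted p = 0.675, exact permutation test).

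At and beyond the 3′ end of Clec7a, 4 weak elements 10.6 to 13.4 kb from its TSS were found in 2 or 3 lists each, all of them at 0 h. Their best entry ranks were 67984.5 to 76158, and only 2 of the 11 LPS lists hold that many entries, so list length and LPS cannot be told apart for them.

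Clec5a, the gene of MDL-1, had no consensus site at its TSS, where 8 of 17 full lists held a peak. The element with a peak in all 17 lists lay 9.46 kb upstream (chr6:40594473-40595800), with a PU.1 match. Its ranks were 17813, 18524 and 20307.5 in WT at 0 h, 11828 and 11283.5 at 1 h and 19567.5, 20323.5 and 17153.5 at 18 h. In Nur77-KO they were 14726, 11350 and 9858.5 at 0 h, 12213.5, 11685 and 7567 at 1 h and 17260, 12930.5 and 15381 at 18 h. WT gained rank at 1 h and had returned by 18 h, and each list of 18 h was weaker than each list of 1 h.

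The rank level of this element was 0.64 lower at 18 h than at 1 h (-0.64; adjusted p = 0.0375, exact permutation test), and the 1 h minus 0 h difference was 0.46 (adjusted p = 0.123, exact permutation test). It had the smallest p of the 19 sites between genotypes, with a KO minus WT difference of 0.39 (p = 0.00675, adjusted p = 0.397, exact permutation test), made up of 0.68 at 0 h (0.675), 0.17 at 1 h and 0.33 at 18 h. Its rank level moved by -0.11 per doubling of depth, and the difference was 0.28 with depth as a covariate (p = 0.0175, adjusted p = 0.266, exact permutation test).

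Past the other end of Clec5a, a site 11.92 kb downstream of its TSS (chr6:40573415-40574226), which lies in an exon of the olfactory receptor gene Olfr460, stood at ranks 13062.5, 13340.5 and 15269.5 in WT at 0 h, 20457 and 15059.5 at 1 h and 29105.5, 38492 and 30765 at 18 h. The ranks in Nur77-KO were 14094, 12837.5 and 10715 at 0 h, 17723.5, 14876.5 and 17691 at 1 h and no peak, 20443 and no peak at 18 h. The 0 h lists were all stronger than the 18 h lists, and no WT list of 18 h had it among the best 24389 peaks. The rank level fell by 0.85 from 0 h to 18 h (adjusted p = 0.0339, exact permutation test) and by 0.47 from 1 h to 18 h (adjusted p = 0.0375, exact permutation test).

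Inside Clec5a, an intronic site 5.29 kb downstream of the TSS (chr6:40580348-40580645), with an AP-1 and an NF-kB match, was found in all 5 lists of 1 h and in none of the 12 other lists. Its ranks at 1 h were 23185 and 23650 in WT and 21107, 26728.5 and 23448.5 in Nur77-KO, close to the end of the best 24389 peaks. The 1 h difference in rank level was 0.07 and was not called (p = 0.02, adjusted p = 0.0664, exact permutation test). This site was picked out after its values were seen. The lists of 1 h had 0.382 to 4.14 background reads per kb and the lists without the site 0.72 to 9.75. The part of depth in this was not tested.

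**Figure D3:**
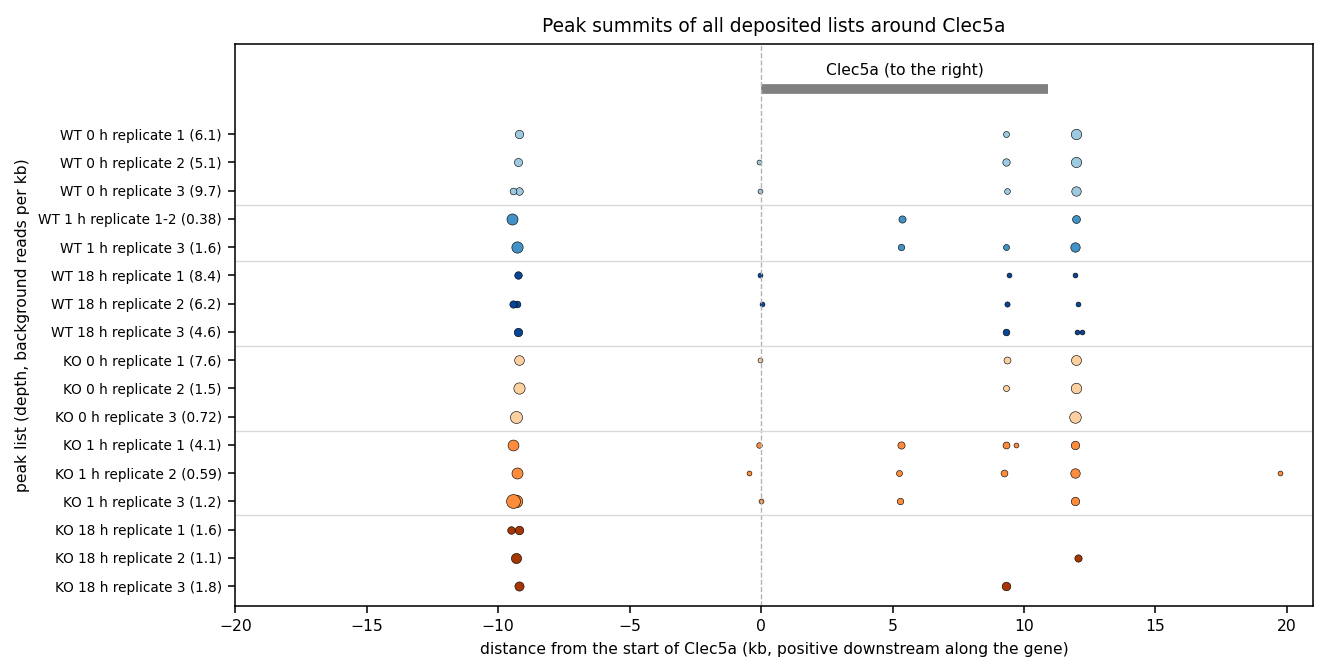
Peak summits of all deposited lists (rows, with depth in background reads per kb in parentheses) by distance from the start of Clec5a in kb, positive downstream; a larger dot is a stronger rank inside its list. The intronic summit near 5.29 kb is present in the 5 lists of 1 h, and the summit near 11.92 kb is weak or missing in the 6 lists of 18 h.

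Clec4a3, the relative of the inhibitory receptor gene Clec4a2, had the highest mean promoter rank level of the 7 genes at 0 h and the largest difference of the 19 sites between LPS times. Its promoter site (chr6:122951945-122953287, best summit 42 bp upstream of the TSS) stood at ranks 6001.5, 4992.5 and 5109.5 in WT at 0 h, 17413.5 and 17650 at 1 h and 5763, 4699.5 and 5609.5 at 18 h. In Nur77-KO it stood at 5137.5, 4542 and 6559.5 at 0 h, 13649.5, 13130 and 16571.5 at 1 h and 9176, 5716.5 and 6961.5 at 18 h. All 5 lists of 1 h were weaker than all 12 other lists. The mean rank level in WT was 2.19 ± 0.15 (SD, n = 3) at 0 h, 0.48 ± 0.01 (SD, n = 2) at 1 h and 2.19 ± 0.16 (SD, n = 3) at 18 h.

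In Nur77-KO the mean rank level of the Clec4a3 promoter was 2.19 ± 0.27 at 0 h, 0.76 ± 0.18 at 1 h and 1.77 ± 0.34 at 18 h (SD, n = 3 each). The promoter fell by 1.57 at 1 h (adjusted p = 0.0272, exact permutation test), by 1.71 in WT and by 1.43 in Nur77-KO. It was 1.36 higher at 18 h than at 1 h (adjusted p = 0.0375, exact permutation test), and 18 h did not pass against 0 h, with a difference of -0.21 (adjusted p = 0.418, exact permutation test). With depth as a covariate the 1 h difference was -1.53 (adjusted p = 0.0225, exact permutation test).

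Of the promoter sites of other genes, the 5 whose rank level was most like that of Clec4a3 over the 17 lists were those of Hist1h3b (Pearson r = 0.937), Mgst1 (0.922), Myo1f (0.912), Hist2h2ac (0.909) and BC049762 (0.906), out of 10319. These correlations describe lists that share groups and depth.

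Clec4a2 itself, the gene of the inhibitory receptor DCIR, kept an open promoter in all 17 lists. Its site (chr6:123122490-123123839) stood at ranks 9452, 6846 and 8092 in WT at 0 h, 23185 and 9051.5 at 1 h and 9546, 10192 and 8684.5 at 18 h. In Nur77-KO it stood at 7123.5, 10483.5 and 5637 at 0 h, 8008, 10441 and 7957.5 at 1 h and 23854.5, 11750 and 6086.5 at 18 h. The weakest values were those of WT 1 h replicate 1-2, the shallowest list, and Nur77-KO 18 h replicate 1, whose peaks were narrow. Neither the 1 h difference of -0.53 (adjusted p = 0.201) nor the 18 h difference of -0.45 (adjusted p = 0.355) was called by the exact permutation test.

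The distal sites around Clec4a3 and Clec4a2 had no call. Those 17.4 and 12.7 kb upstream of Clec4a3 were higher in rank level at 18 h by 0.59 and 0.31, and neither was called (adjusted p = 0.0776 for each, exact permutation test). The site 5.5 kb upstream of Clec4a3 (chr6:122946649-122947264) stood at ranks 17813, 18524 and 17883.5 in WT at 0 h, no peak and 16738 at 1 h and 26125, 28850.5 and 19109 at 18 h, and the Nur77-KO lists had 18251.5, no peak and no peak at 0 h, 13132, 6805 and 10321.5 at 1 h and no peak in any of 3 lists at 18 h. In Nur77-KO all 3 lists of 1 h were stronger than every list of the other times, and the WT lists of 1 h did not show this. The remaining sites near these genes, including the promoter of the neighbouring Clec4a4, had no call in any comparison.

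**Figure D4:**
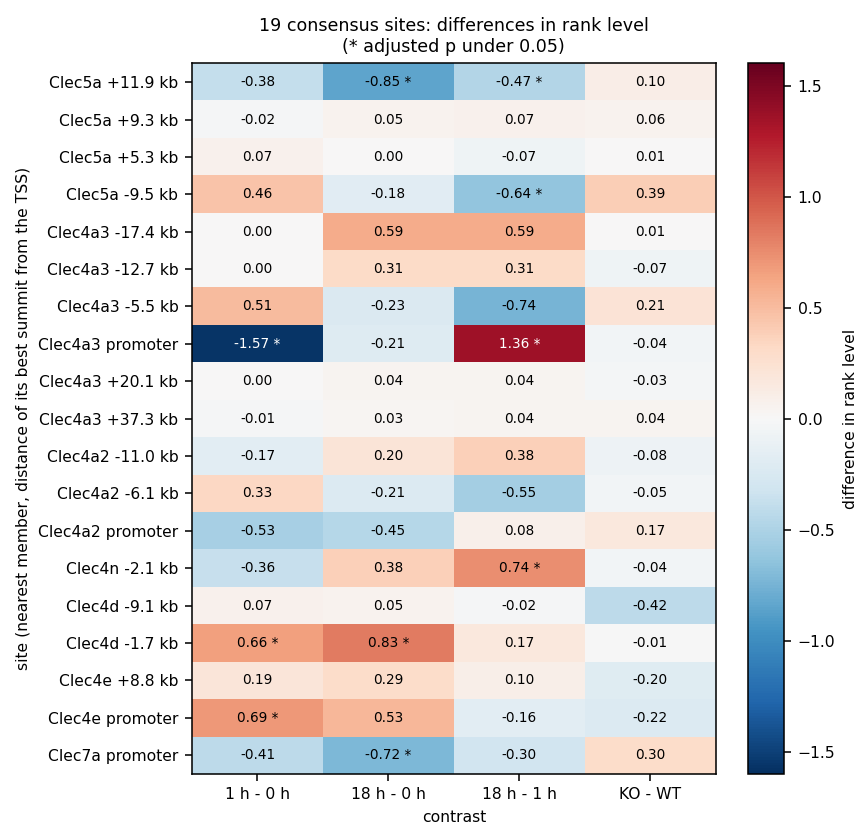
Difference in rank level (colour and printed value) for each of the 19 sites (vertical axis, by nearest member and distance to its TSS) in 4 comparisons (horizontal axis); an asterisk marks an adjusted p under 0.05 by the exact permutation test. The KO minus WT column holds no asterisk and the Clec4a3 promoter holds the lowest and the highest value.

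Between genotypes no site passed. By the exact permutation test 0 of the 19 sites had an adjusted p under 0.05 for KO against WT, 2 had an unadjusted p under 0.05, against 6.95% of all sites, and limma called 0 of the 19 and 194 of all sites. For the difference in LPS response between genotypes, 2 sites had an unadjusted p under 0.05 at 1 h (3.58% of all sites) and 1 at 18 h (3.59% of all), and none passed after adjustment in either the exact test or limma. The members' values therefore do not separate the genotypes at this number of lists, which does not show that they were alike.

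Counting peaks instead of ranking them gave no call either. With the number of best peaks within 20 kb of a gene body, 0.0% of the 15499 genes tested passed in each of the 3 time comparisons and in KO against WT, and so none of the 7 members did. The smallest exact p is limited by the design here too, so a call in a time comparison needed many genes at that p. This result therefore does not show that peak numbers at the members were unchanged. Unadjusted, 2227 genes had an exact permutation p under 0.05 at 18 h against 0 h, among them 2 members. Clec7a went from 1 peak in each of the 6 lists of 0 h to 0 peaks in 5 of 6 lists of 18 h (adjusted p = 0.164, exact permutation test), and Clec4a3 from 1 to 3 peaks at 0 h to 2 to 6 at 18 h (adjusted p = 0.225, exact permutation test).

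In the full lists the windows of the 7 genes held 74 elements, groups of summits that lie together, of which 40 lay in the consensus sites, 4 were found in all 17 lists and 34 lay outside. Of those outside, 18 were seen in 1 list and 16 in several. Apart from the 4 beyond Clec7a, 4 of these 16 were seen only at 18 h: 14.6 and 15.4 kb upstream of Clec4a3, in the intron of Clec4e 2.06 kb from its TSS and 13.07 kb from it toward Clec4d. All 4 were in WT lists, whose depth at 18 h was above that of Nur77-KO, and the part of depth in this was not tested.

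Of the genes that carry the signal of these receptors, 16 of 16 adaptor and signalling genes had a consensus site at the promoter. The rank level of these sites was above 0 in 13 (Plcg2) to 17 lists, and the share over all genes was not counted. At 1 h, 6 of the 16 were lower, against 17% of all 10320 promoter sites, and 1 was higher, against 4.25% of all. The lower ones included the adaptor genes Fcer1g (FcRγ), at -1.02 in rank level, and Tyrobp (DAP12), at -1.81, together with Card9, Vav1, Ptpn6 and Inpp5d, the latter pair encoding phosphatases that inhibitory receptors recruit. Malt1, the protease of the Card9 complex, was 1.80 higher (adjusted p = 0.0272 for each of the 7, exact permutation test).

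At 18 h none of the 16 was called, in either direction, against 2.63% of all promoter sites higher and 8.41% lower. From 1 h to 18 h Fcer1g, Tyrobp, Card9 and Vav1 were higher, by 0.94 to 2.11, against 4.24% of all promoter sites, and Malt1 was lower, at -2.55, against 4.8% of all (adjusted p = 0.0375 for each, exact permutation test). The median difference of the list was -0.33 at 1 h and -0.18 at 18 h, beside -0.27 and -0.14 over all promoter sites.

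Among 24 other C-type lectin receptor genes 9 had a promoter site, and the share over all genes was not counted. At 1 h Clec2d (0.63) and Cd302 (0.97) were higher in rank level, and Clec4b1 (-0.49) and Clec10a (-2.08) were lower (adjusted p = 0.0272 for each, exact permutation test), beside the 4.25% and 17% of all promoter sites that were higher and lower. Clec2d was then lower at 18 h than at 1 h, at -1.33 (adjusted p = 0.0375, exact permutation test). It was the 1 call of the 9 in that comparison, beside 4.8% of all promoter sites that were lower. Clec10a, a galactose-binding lectin gene, and Clec4b1, which lies between Clec4a3 and Clec4a2, were also lower at 18 h than at 0 h, at -2.32 and -0.54 (adjusted p = 0.0339 for each, exact permutation test), beside 8.41% of all promoter sites. No promoter of any list was called between genotypes by the exact permutation test.

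**Figure D5:**
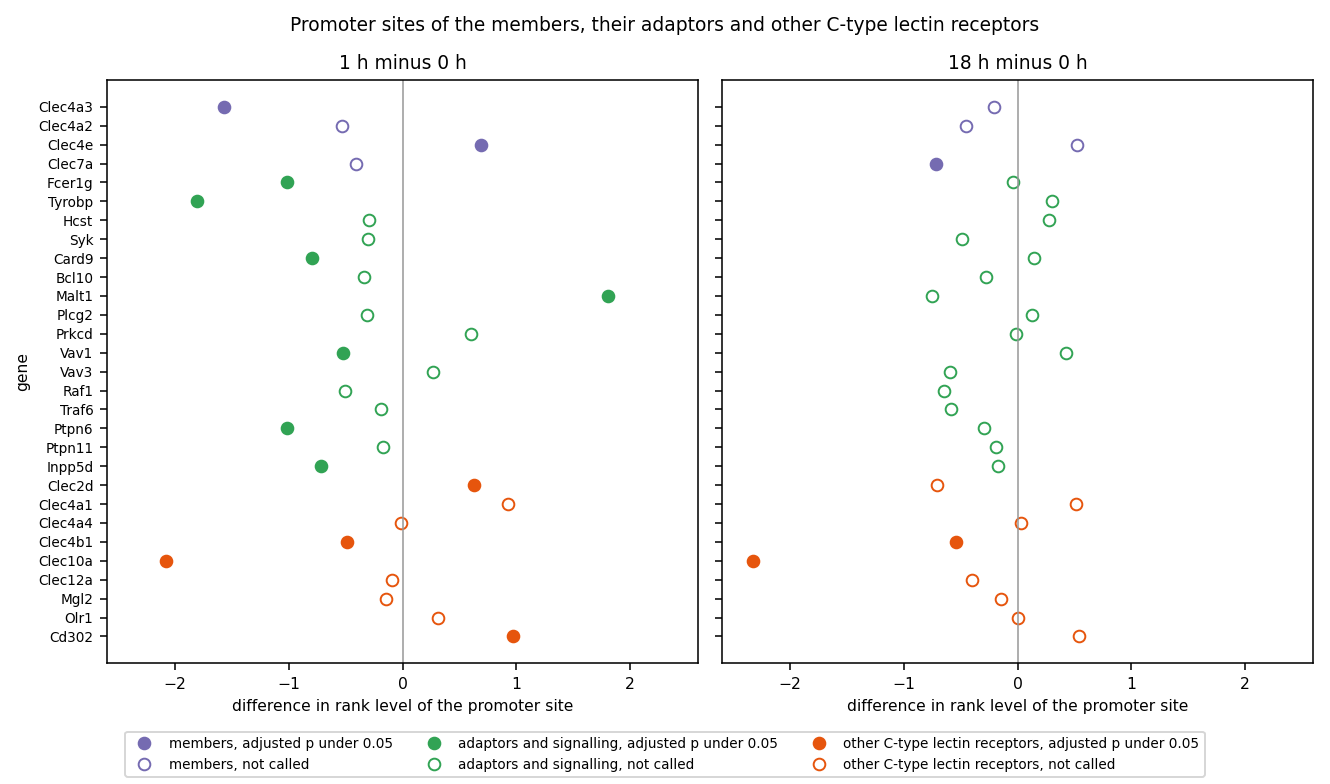
Difference in rank level of promoter sites at 1 h (left) and 18 h (right) against 0 h for the 4 members with a promoter site, 16 adaptor and signalling genes and 9 other C-type lectin receptor genes; filled points have an adjusted p under 0.05 by the exact permutation test. At 1 h 6 of the 16 adaptor and signalling promoters are filled to the left of 0 and Malt1 to the right, and at 18 h none of the 16 is filled.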

How the data were processed

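ATAC-seq of BMDMs was deposited as 17 peak lists, 1 per sample and called per sample. The authors trimmed reads with cutadapt 2.6, mapped them to mm10 with the snakeATAC pipeline and compared sites with DiffBind 3.0.15, per the submitters' processing notes and the methods; those read counts were not used here. The deposited peak names carry a mapping quality of 20, a q-value of 0.001 and removal of duplicates and mitochondrial reads. In the deposited lists the integer score equals the −log10 q-value multiplied by 10, for 100% of entries. The deposited fold is the ratio of summit pileup to background, and the deposited p-value and q-value are on the −log10 scale; all of them move with depth, so they served only to rank peaks inside a list. Tn5 offset handling was not given in the sources used here.

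Entries sharing an interval were collapsed to the best summit, peaks were ranked by p-value with ties at the last place broken at random (seed 1), and the best 24389 per list were merged into consensus sites held by at least 2 lists. Depth was recovered from fold and p-value as a background level. It gave whole reads for 100% of entries below a cap on summit reads (tolerance 0.01 reads) and the Poisson p of 98.1 to 100% of these. Stronger entries were left out of both shares. Divided by the shortest peak width, taken as the fragment length, the level is a relative index that rests on this assumption. No counting interval was given for ranks. In the shallowest list the weakest peak rested on 3 reads. Genes, TSSs and exons came from GENCODE for mm10, and a promoter was within 1 kb of the TSS of a protein-coding transcript of that gene. Clec7a is annotated as a polymorphic pseudogene with a coding transcript. The number of columns belonging to other samples was 0.

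Rank levels were tested by two-sided exact permutation, LPS times within genotype (1 h and 18 h against 0 h, and 18 h against 1 h) and KO against WT within LPS time, with Benjamini-Hochberg adjustment over all 34165 sites (Python 3.11.15, scipy 1.17.1). The difference in LPS response between genotypes permuted genotype within time. The permutation script was tested on simulated data. limma 3.58.1 (R 4.3.3), the number of best peaks, all deposited peaks, a minimum cover, depth as a covariate, a replicate block, summit clusters and leaving out each list were alternatives. Every member was named with its promoter site; distal sites were named if called or if the groups did not overlap, and the rest were counted. The members and the lists of pathway and marker genes were chosen with earlier results of these data known. The values of 1 marker gene are not reported here.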

Additional observations from a re-analysis of the deposited data

Results flagged for a closer look

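In 3 sites the LPS response differed between genotypes at an unadjusted p of 0.02 in the exact permutation test of the difference itself, and none passed over all sites. At the site 5.5 kb upstream of Clec4a3 the 1 h response in rank level was 1.35 (1.347) greater in Nur77-KO than in WT, with 1.19 in Nur77-KO and -0.16 in WT (adjusted p = 0.933, exact permutation test). Without WT 1 h replicate 1-2, the shallowest list, it was 1.07 (1.075; p = 0.075, exact permutation test). At the site 6.1 kb upstream of Clec4a2 (chr6:123116301-123117026) the 1 h response was -0.72 in Nur77-KO relative to WT, with 0.69 in WT and -0.03 in Nur77-KO (adjusted p = 0.933, exact permutation test). At the Clec4e promoter the 18 h response was -1.16 (-1.163) in Nur77-KO relative to WT (adjusted p = 0.942, exact permutation test). The Nur77-KO lists of 18 h had 1.10 to 1.76 background reads per kb and the WT lists 4.62 to 8.38. Depth as a covariate therefore cannot tell genotype from depth there, and the part of depth was not tested.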

How the results depend on the processing

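Of the 19 sites, 3 were called at 1 h against 0 h, 3 at 18 h against 0 h, 4 at 18 h against 1 h and 0 in the 3 genotype comparisons. With the best 10000 peaks per list or a cover of 50% the called sites were 0, 0 and 0, and no site of the series was called; with all deposited peaks they were 0, 4 and 0. With depth as a covariate they were 6, 5 and 6, and with limma over the 6 groups 8, 6 and 9, and neither called a genotype difference at a member site. The cause was not tested. Over all sites limma called 9212, 7820 and 9345 against 7731, 5041 and 4552 by the exact test, 194 for KO against WT against 0, and 67 and 14 for the responses. The alternative settings other than leaving out a list called 0 to 10945, 0 to 7820 and 0 to 9345 sites or summit clusters of the whole series. For depth as a covariate, all deposited peaks at 18 h, summit clusters and the replicate block, only this range is given. Their counts near the members are therefore not set against a share over all sites. Near the members, summit clusters, an alternative added after seeing the data, gave 4, 3 and 3. Leaving out 1 list, exact test and limma together (limma added after seeing the data), gave 0 to 8 called sites at 1 h, 1 to 6 at 18 h, 0 to 9 for 18 h against 1 h, and 0 to 1 for KO against WT, the 1 without WT 1 h replicate 3 in limma. In the exact test a list less raises the smallest p, and 18 h against 1 h then had 0 calls at any site of the series. In limma alone the ranges were 3 to 8, 5 to 6 and 7 to 9, and the calls lost were Clec4d and Clec4e at 1 h without WT 1 h replicate 3, as given in the report. The only reversal was the 1 h response at the Clec4a2 site 6.1 kb upstream, at 0.50 (0.498) with all deposited peaks.

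Deviations of same-numbered lists correlated at -0.226 to 0.206 (median 0.006, over 35 pairs), and 4 of 16 lists correlated best with their own number. Pairs across genotypes were pooled with pairs within a genotype, so pairing by animal across LPS times was not tested on its own. With the replicate number as a block in limma, without the list labelled 1-2, 4, 7, 9 and 0 sites were called for 1 h, 18 h, 18 h against 1 h and KO against WT. No block was fitted for the responses or the peak numbers. Peak numbers per gene gave 0 calls in each setting tried. Depth limits what a missing peak shows: the last of the best peaks rested on 3 to 69 reads.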
